A study of Mus musculus and Homo sapiens with 15 samples.

Results

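C-to-U editing was compared between fixed mouse brain slices that received the purified deaminase without any antibody and slices that received neither, to describe what the untargeted enzyme edits in brain tissue. The comparison used 6 of the 15 libraries of the series, 3 labelled enzyme-only and 3 labelled buffer-only, chosen by their titles. The 3 RBFOX2-INSCRIBE brain libraries, which had an anti-RBFOX2 antibody and the enzyme, are given beside them where their values help. All slices were coronal sections from female wild-type C57BL/6J mice aged 2 months, snap frozen, cryosectioned and labelled as PFA-fixed, and each library came from 1 slice. The sources used here differ on whether 1 or 2 mice were used, and the labels do not tie slices to a mouse, so p-values below measure the spread between slices, and an animal effect cannot be told apart from the group. The enzyme was APO1-Nb, rat APOBEC1 fused to a nanobody that recognises rabbit IgG. It was made in bacteria and incubated on the fixed tissue, unbound enzyme was washed off, and editing then ran in editing buffer. The buffer-only slices went through the incubation without it. Total RNA was depleted of ribosomal RNA and sequenced.

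APOBEC1 is a zinc-dependent cytidine deaminase that turns cytosine into uracil in single-stranded RNA. In the gut and liver it edits the apolipoprotein B mRNA together with a cofactor, next to a downstream mooring sequence, and in other tissues its known targets lie mainly in A- and U-rich 3′ UTRs. The enzyme prefers a cytosine that follows an adenine or a uracil. In INSCRIBE the nanobody brings the enzyme to an antibody on an RNA-binding protein, and a slice with the enzyme alone measures the edits that need no antibody.

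A site was kept where the site caller's confidence score was above 0.5 and where edited reads were under 0.8 of the covering reads. Edited reads here are reads with a C-to-U change, also in the buffer-only libraries, which had no added enzyme. The paper ascribes changes called in its buffer-only controls to damaged RNA and to errors of reverse transcription or PCR. Their cause was not tested here. The enzyme-only libraries held 225186, 239874 and 221730 kept sites and the buffer-only libraries 217309, 161163 and 159087. Buffer-only replicate 1 stood apart from its group: it was close to the enzyme-only libraries in number of sites and had a larger share of intronic sites than any other library of the comparison. Median covering reads per kept site were 16 to 17 in all 6 libraries. Total sequencing depth was not given in the files, so numbers of sites were not scaled to it. Every kept site with a genome base was a C on its own strand. With 3 libraries against 3, the smallest p of the two-sided exact permutation test used for library measures was 0.1, so none of them could pass 0.05.

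Some sites were kept in all 3 enzyme-only libraries and listed at any score in no buffer-only library. The 8 of them with the largest summed numbers of edited reads, taken once for each gene, are printed here. They are shown because they recurred in the enzyme-only libraries and were not listed in the buffer-only libraries. Their cover in the buffer-only libraries is not known here. Sites without a gene, and sites on a chromosome that was left out beforehand, were not ranked, here and in the reverse set below. Ties were taken in chromosome order, so other sites with as many edited reads may not be shown. Each run reads 5′ to 3′ on the transcript strand of GRCm38 (mm10), with T for U, and the capitals mark the edited C and the base before it.

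Luzp2: tcttggctttgACttcctgttctag

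Gria3: ctctccgtcagACtgcatgtgtcct

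Lyrm4: atgaaatgtttACatagcttctggt

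Zfand5: aatcataaccaACatggctgcagta

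Rgs5: ttaattcttatTCtctaatggcttc

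Msi2: agtgatttttgACttagtctggtag

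Tubb2a: caagaacagcaGCtacttcgtggag

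Tuba1a: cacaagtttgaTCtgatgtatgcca

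An adenine preceded the edited C in 5 of these 8 sites, a uracil in 2 and a guanine in 1, in Tubb2a. The Luzp2 window lies at chr7:55267505-55267529 on the plus strand, in the 3′ UTR of a gene for a leucine zipper protein of the nervous system. Its C was edited in 2 of 141, 4 of 191 and 5 of 163 reads of the enzyme-only libraries. The Gria3 window, chrX:41677550-41677574 on the plus strand, lies in the 3′ UTR of a subunit of the AMPA glutamate receptor, and had 2 of 168, 4 of 201 and 4 of 175 reads edited. Both sites were also listed in all 3 RBFOX2-INSCRIBE libraries, with 3, 4 and 2 edited reads for Luzp2 and 5, 1 and 2 for Gria3.

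The other 6 had 6 to 8 edited reads over the 3 enzyme-only libraries. The windows of Zfand5 (chr19:21281492-21281516, plus strand), Rgs5 (chr1:169692766-169692790, plus strand) and Msi2 (chr11:88344339-88344363, minus strand) lie in 3′ UTRs. Msi2 encodes the RNA-binding protein Musashi-2. Those of the tubulin genes Tubb2a (chr13:34074777-34074801, minus strand) and Tuba1a (chr15:98950189-98950213, minus strand) lie in coding sequence, and that of Lyrm4 (chr13:35990352-35990376, minus strand) in an intron. The site of Rgs5, a regulator of G-protein signalling known from pericytes, was listed in none of the 3 RBFOX2-INSCRIBE libraries, and the other 5 were listed in at least 1.

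The reverse set, kept in all 3 buffer-only libraries and listed in no enzyme-only library, was led by sites in Opcml, 6820431F20Rik and a pair of overlapping non-coding genes, and the first and last are printed for contrast.

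Opcml: tccttccttccTCcctccctccttt

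Gm25241 and Gm8399: cctcatgaagaTCctgactgaacgg

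These lie at chr9:28527324-28527348 (plus strand, intron) and chr13:81065239-81065263 (plus strand, non-coding exon), and the 6820431F20Rik site lies in an intron. None of the 3 had an adenine before the C. The Opcml site lies in a pyrimidine repeat and was covered by 6, 5 and 10 reads in the buffer-only libraries, far fewer than the 141 or more reads over the Luzp2 site.

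Recurring sites were few. Of the kept sites, 483 were kept in all 3 enzyme-only libraries, and 396 of these were listed in at least 1 buffer-only library, which left 87 in 73 genes. In the other direction, 409 sites were kept in all 3 buffer-only libraries and 33 of them were listed in no enzyme-only library. The base before the C took no part in this choice. It was A or U in 77 of the 87 enzyme-only sites, 88.5% (95% Wilson interval 80.1% to 93.6%), and in 17 of the 33 buffer-only sites, 51.5% (35.2% to 67.5%). The 2 intervals did not overlap, and they take sites, not slices, as the units. Among the 258 sites of known sequence kept in all 6 libraries, 148 had A or U before the C, 57.4% (51.3% to 63.2%). An adenine alone stood before 52 of the 87 sites and before 4 of the 33.

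Of the 87 sites, 42 lay in 3′ UTRs, 19 in coding sequence and 16 in introns, against 3, 6 and 18 of the 33 buffer-only sites. These intervals, and the others on shares of sites, cover counting error only, since reads were not collapsed by molecular identifiers. Of the 87 sites, 30 were listed in at least 1 RBFOX2-INSCRIBE library, 34.5% (25.3% to 44.9%), and 6 in all 3. Of the 33 buffer-only sites, 15 were, 45.5% (29.8% to 62.0%). These 2 intervals overlapped, and no test was run over sites. When at least 2 edited reads were asked for in each of the 3 libraries, the sets shrank to 5 and 3 sites, so most recurring sites rested on a single edited read in at least 1 library.

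Over all kept sites the base before the C differed between the groups. An adenine stood there in 30.0%, 30.7% and 31.6% of sites in the enzyme-only libraries and in 22.7%, 22.4% and 22.4% in the buffer-only libraries. Uracil stood there in 31.4% ± 0.319 (SD, n = 3) of enzyme-only and 29.5% ± 0.216 of buffer-only sites. The gain of adenine was 8.24 percentage points and that of uracil 1.89. Cytosine was lower in the enzyme-only libraries, at 20.5% against 26.5% (difference -6.02 points), and so was guanine, at 17.4% against 21.5% (-4.11 points). For each of the 4 bases the 3 enzyme-only libraries lay apart from the 3 buffer-only libraries (exact permutation p = 0.1, two-sided).

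**Figure D1:**
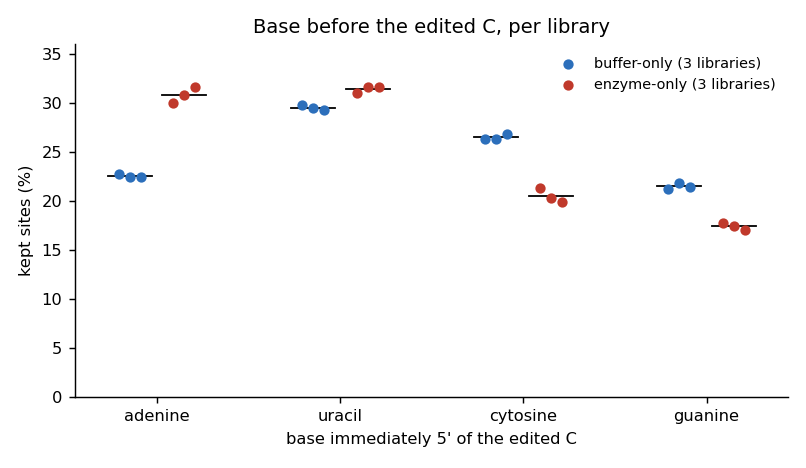
Percent of kept sites with each base immediately 5′ of the edited C; each point is a library and each black line the mean of 3. Adenine was 22.4% to 22.7% in the buffer-only and 30.0% to 31.6% in the enzyme-only libraries, and cytosine and guanine were lower in the enzyme-only libraries.

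The base after the C differed less. Uracil followed the C in 37.3% ± 0.517 of enzyme-only and 34.4% ± 0.184 of buffer-only sites, and cytosine in 22.9% ± 0.406 and 26.2% ± 0.178. Adenine after the C did not separate the groups, at 33.3% and 33.0%, nor did guanine, at 6.53% and 6.40%. Beyond the 2 neighbours the differences were smaller than 2 points. The largest among the other positions within 6 bases was uracil at 3 bases before the C, 30.1% against 28.4%.

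Taken by the 3 bases centred on the C, all 16 contexts separated the 2 groups of libraries, 7 higher and 9 lower in the enzyme-only libraries (exact permutation p = 0.1 each, 0.1 after Benjamini-Hochberg adjustment over the 16). ACU had the largest ratio of the 16: it held 10.9%, 11.3% and 11.9% of enzyme-only sites and 6.83%, 6.65% and 6.68% of buffer-only sites, a ratio of 1.69. ACG held 2.04% against 1.49%, a ratio of 1.37, and ACA 11.8% against 9.07%, a ratio of 1.30. UCU held 12.9% against 11.2%, a ratio of 1.15. Of the 8 contexts with A or U before the C, UCC was lower in the enzyme-only libraries, 7.56% against 8.33%, and the other 7 were higher. The wider surroundings hardly differed. The A+U content of the 20 bases on each side, without the C and its neighbours, was 52.7% ± 0.256 against 52.0% ± 0.208. UGAU, a core of the mooring sequence, started 2 to 10 bases after the C in 3.36% ± 0.0797 of enzyme-only and 3.31% ± 0.0373 of buffer-only sites, and these overlapped between the groups (exact permutation p = 0.4).

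Numbers of sites were compared by context, without scaling to depth. Sites with A or U before the C numbered 137265, 149472 and 140039 in the enzyme-only libraries and 114012, 83550 and 82304 in the buffer-only libraries, a ratio of means of 1.52. Sites with G or C before the C numbered 87839, 90316 and 81620 against 103212, 77546 and 76731, a ratio of 1.01, and overlapped between the groups. For these, every enzyme-only library lay below buffer-only replicate 1 and above the rest of that group. Beside these, the RBFOX2-INSCRIBE libraries held 96563 ± 12605 sites with G or C before the C.

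The A or U share was higher at sites with more edited reads in the enzyme-only libraries, while it stayed level in the buffer-only libraries. It was 61.8% ± 1.08 at sites with 1 edited read, 64.3% ± 1.72 at sites with 2, and 67.6% ± 0.533 at sites with 3 or more (n = 3). In the buffer-only libraries it was 52.0% ± 0.429, 52.0% ± 0.461 and 51.3% ± 0.121. At sites with 3 or more edited reads the enzyme-only libraries had 67.0%, 68.1% and 67.7% and the buffer-only libraries 51.2%, 51.4% and 51.3%, a gap of 16.3 points against 9.81 at sites with 1 edited read. Sites with 2 or more edited reads made up 11.6%, 10.6% and 10.6% of the enzyme-only and 8.69%, 10.3% and 9.44% of the buffer-only sites.

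**Figure D2:**
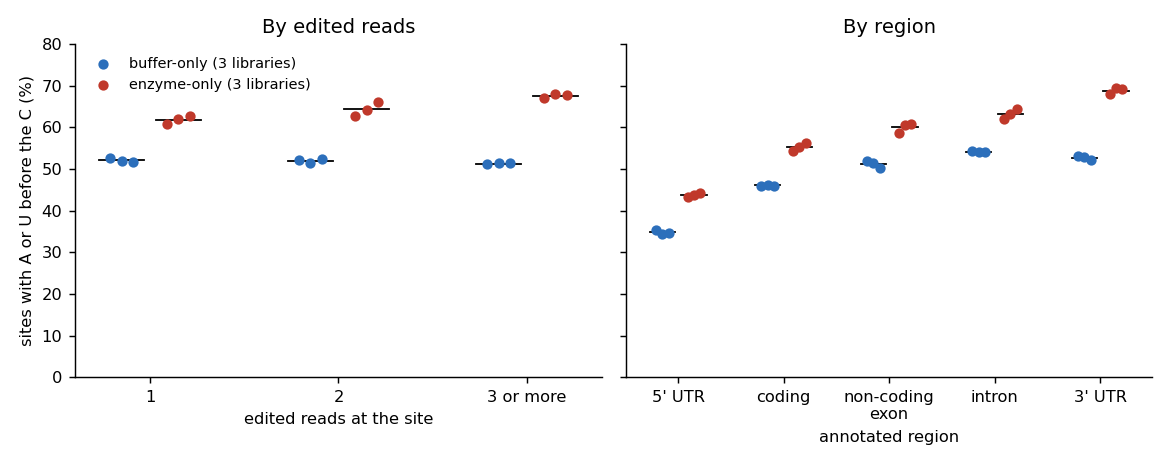
Percent of kept sites with A or U before the C, by the edited reads at the site (left) and by annotated region (right); points are libraries and lines the mean of 3. The mean enzyme-only share was 61.8% at 1 edited read and 67.6% at 3 or more, the mean buffer-only share lay between 51.3% and 52.0%, and the gap was widest in 3′ UTRs.

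Sites were also split by region. By the GENCODE annotation of this build, 3′ UTRs held 17.95%, 17.0% and 17.3% of the annotated sites in the enzyme-only libraries and 10.7%, 13.6% and 12.8% in the buffer-only libraries (exact permutation p = 0.1). Introns held 54.3%, 57.6% and 56.6% against 67.3%, 59.5% and 61.0%, a difference of -6.42 points, and -4.08 without buffer-only replicate 1. The shares of coding sequence, 5′ UTRs and exons of non-coding genes overlapped between the groups, at 19.9% against 18.5%, 2.05% against 2.05% and 4.48% against 4.52%. In the RBFOX2-INSCRIBE libraries, which also had the enzyme, 3′ UTRs held 14.4%, 12.2% and 16.5%, overlapping the buffer-only and not the enzyme-only libraries. Introns held 64.6%, 68.1% and 60.2% there, again overlapping the buffer-only libraries alone. Why they differed from the enzyme-only libraries was not tested.

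In 3′ UTRs the number of sites with A or U before the C was 26096, 26769 and 25327 with the enzyme and 11695, 11028 and 10117 without it, a ratio of 2.38. In the same 3′ UTRs the sites with G or C before the C had a ratio of 1.20. In coding sequence the ratios were 1.68 and 1.16. Neither kind overlapped between the groups in coding sequence or in 3′ UTRs. In introns the numbers of both kinds overlapped between the groups, and buffer-only replicate 1 was far above the other two buffer-only libraries. The A or U share was 68.8% ± 0.792 against 52.7% ± 0.534 in 3′ UTRs, a gap of 16.1 points. The gap was 9.20 points in coding sequence, 9.004 in 5′ UTRs, 8.79 in exons of non-coding genes and 9.02 in introns. The groups did not overlap in any of the 5 regions. In 3′ UTRs of the RBFOX2-INSCRIBE libraries the A or U share was 69.4% ± 2.69.

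**Figure D3:**
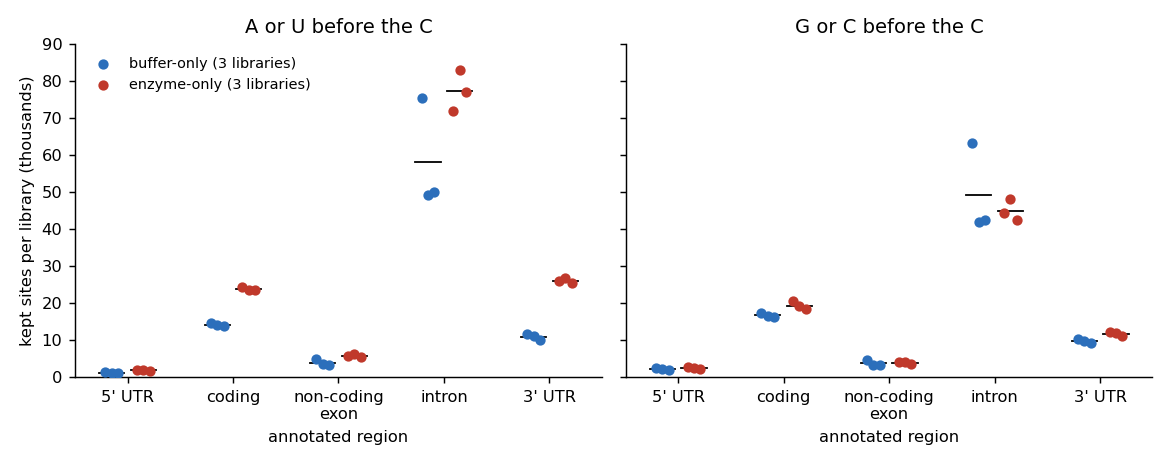
Kept sites per library, in units of 1000, in 5 annotated regions, for sites with A or U (left) and with G or C (right) before the C; points are libraries and lines the mean of 3. With A or U, 3′ UTR sites numbered 25327 to 26769 in the enzyme-only and 10117 to 11695 in the buffer-only libraries; the single high buffer-only point over introns is replicate 1.

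Edit clusters, the windows in which the authors' pipeline joins nearby sites, numbered 182040, 194013 and 180088 with the enzyme and 188391, 140879 and 139884 without it, and overlapped. Clusters with 2 or more edited bases made up 22.4%, 21.4% and 21.4% of the enzyme-only and 15.8%, 16.9% and 15.8% of the buffer-only clusters. By the cluster label, exons held 42.6%, 39.4% and 40.6% of clusters against 31.6%, 39.0% and 37.7%. The gap in the exon share was 4.77 points, and 2.51 points without buffer-only replicate 1. In the RBFOX2-INSCRIBE libraries exons held 33.2%, 30.5% and 37.1% of clusters, overlapping the buffer-only and not the enzyme-only libraries. Of edited reads, 49.6% ± 1.61 against 44.6% ± 3.97 lay in exons, a gap of 4.998 points, and 2.81 without buffer-only replicate 1. Within clusters, 2.99 ± 0.0348 of 1000 covering bases at C positions were edited in exons with the enzyme and 2.75 ± 0.0296 without it. In introns these were 6.92 ± 0.196 and 5.86 ± 0.425.

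The authors' lists of clusters present in all 3 replicates held 4542 clusters for the enzyme-only group and 2092 for the buffer-only group. Exons held 73.4% (95% Wilson interval 72.1% to 74.7%) of the labelled enzyme-only clusters and 59.1% (57.0% to 61.2%) of the buffer-only ones. The lists shared little: 225 of the enzyme-only clusters, 4.95%, overlapped a buffer-only cluster by at least 1 base, and 223 of the buffer-only clusters, 10.7%, overlapped an enzyme-only cluster. Among clusters labelled with 1 gene, the enzyme-only list held 11 in Slc1a2, the main astrocytic glutamate transporter, 10 in Kcnq3, a subunit of the M-type potassium channel, and 8 in Med13, a Mediator subunit. The numbers of these genes in the shorter buffer-only list are not given here. Rgs5 had 11 clusters in the enzyme-only and 13 in the buffer-only list, and 6820431F20Rik had 14 in each. In the same order, 2610005L07Rik had 14 and 11, Hjurp 10 and 11, and Gm21092 8 and 9. The authors' cleaned enzyme-only list, from which buffer-only clusters were removed, held 4401 clusters, of which 61 still overlapped a buffer-only cluster by at least 1 base. Of the cleaned clusters 10 lay in Kcnq3, 9 in Slc1a2 and 8 in Med13.

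Edited reads were then summed per gene over sites whose cluster label names 1 gene, and tested with edgeR's quasi-likelihood test over 5926 genes, relative to the edited reads of all genes. With the enzyme, 13 genes were higher, 0.219% of those tested, and 10 lower, 0.169%, at an adjusted p under 0.05. At an unadjusted p under 0.05 there were 599. The median log2 difference over all genes was -0.01. The 7 risen genes with at least 20 edited reads a library on average and no overlap between the groups were Sparcl1, Rlim, Lnpep, Rab3c, Erbb4, Purg and Qk.

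Sparcl1, which encodes a matricellular protein that astrocytes secrete at synapses, had 81, 110 and 84 edited reads in the enzyme-only libraries and 17, 12 and 9 in the buffer-only libraries (log2 difference 2.36, SE 0.24, edgeR adjusted p = 7.75e-09). The 2 groups were far apart. The RBFOX2-INSCRIBE libraries had 171, 111 and 123. A single base carried 64.4% of the enzyme-only edited reads of the gene. It lies in the 3′ UTR, in the window chr5:104079473-104079497 on the minus strand, and is printed because it carried most of the gene's difference. It was chosen after its values were seen.

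Sparcl1: gcttcagaaatACgagcagccatga

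At this base 58 of 1101, 71 of 1186 and 48 of 1008 reads were edited with the enzyme, 5.27%, 5.99% and 4.76%. Without it, 5 of 1409, 8 of 1122 and 5 of 854 were, 0.355%, 0.713% and 0.585%, which fell under the score limit and so counted as no kept reads. The mean edited share was 9.69 times higher with the enzyme (5.34% ± 0.615 against 0.551% ± 0.182, n = 3, exact permutation p = 0.1). The 3 RBFOX2-INSCRIBE libraries had 4.74%, 4.74% and 5.69%. With every listed site counted, at any score, the difference of Sparcl1 was 1.22 on the log2 scale (edgeR adjusted p = 2.81e-07). Outside this base, Sparcl1 had 23, 39 and 36 kept edited reads with the enzyme and 17, 12 and 9 without it.

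The other 6 risen genes had no such base: the most edited base held 0.875% to 4.48% of their enzyme-only edited reads. Rlim, an X-linked E3 ubiquitin ligase, had 34, 40 and 37 edited reads against 8, 12 and 6 (log2 difference 1.59, SE 0.33, adjusted p = 7.46e-03). Lnpep, the insulin-regulated aminopeptidase, had 52, 70 and 61 against 9, 20 and 19 (1.43, SE 0.27, 4.62e-03). Rab3c, a small GTPase of synaptic vesicles, had 47, 45 and 42 against 16, 8 and 13 (1.36, SE 0.28, 6.96e-03). For these 3 genes 77.5%, 77.6% and 61.9% of the enzyme-only edited reads lay in the 3′ UTR.

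Erbb4, a receptor for neuregulins, had 55, 42 and 52 edited reads against 11, 14 and 22 (1.16, SE 0.28, 0.0449), a difference that was 0.0050 on the log2 scale with genes from GENCODE (adjusted p = 0.994). Qk, which encodes the RNA-binding protein Quaking, had 168, 165 and 147 against 85, 65 and 59 (0.71, SE 0.15, 0.0139). Purg, a purine-rich element binding protein, had 120, 82 and 141 against 35, 52 and 45 (0.88, SE 0.21, 0.0449), and 2.92% of its enzyme-only edited reads lay in the 3′ UTR. Across the 7 genes A or U preceded the C in 73.2% to 92.0% of enzyme-only edited reads and in 53.8% to 75.7% of buffer-only ones. The highest, in Sparcl1, includes the main base, which passed the score limit with the enzyme alone. Over the alternative settings the call was lost in 0 for Sparcl1, 3 each for Rlim and Lnpep, 4 for Rab3c, 7 for Purg, 9 for Qk and 11 for Erbb4.

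A further 6 genes passed the test with fewer reads. Map1b, a microtubule-associated protein of axons, had 17, 26 and 35 edited reads against 4, 4 and 1, and the RBFOX2-INSCRIBE libraries had 2, 9 and 6. Oip5os1, the long non-coding RNA Cyrano, had 14, 26 and 22 against 4, 2 and 3, with 134, 76 and 119 in the antibody libraries. Slc39a10, a zinc importer, had 10, 12 and 22 against 2, 0 and 1. Ppp1r2, Lcorl and Dusp1 were the remaining ones.

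Of the 10 genes that fell, 6 had a single base with at least 25% of their buffer-only edited reads. Gm42418 and Gm26917, adjoining non-coding genes on chromosome 17 at a ribosomal RNA precursor unit of this build, had 5222, 5787 and 5176 edited reads against 6366, 5540 and 4982, and 11489, 12361 and 10385 against 13050, 11503 and 9500. Relative to all edited reads they fell (log2 difference -0.55, SE 0.10, adjusted p = 3.33e-03, and -0.48, SE 0.09, 4.62e-03). A single base of Gm42418 held all of its buffer-only edited reads, and 63.3% ± 0.127 of the reads there were edited with the enzyme against 64.0% ± 0.904 without it. These shares overlapped. The main base of Gm26917 was edited in 69.2% ± 0.213 against 69.6% ± 0.561.

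Vps45, a Sec1/Munc18 family protein of endosomal traffic, had 55, 76 and 60 edited reads against 101, 82 and 82 (log2 difference -0.96, SE 0.18, adjusted p = 4.62e-03). One intronic base held 84.2% of the buffer-only reads. It is printed with the main base of Dlgap1, as examples of bases with C-to-U reads in every library, also without the enzyme. The windows are chr3:96044734-96044758 (minus strand) and chr17:70819502-70819526 (plus strand), and both bases were chosen after their values were seen.

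Vps45: cctataactgtGCgtactgatctag

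Dlgap1: cggcagggcagGCggcattcataaa

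A guanine precedes the C in both. The Vps45 base was edited in 50.0%, 49.2% and 43.0% of reads with the enzyme and in 51.8%, 55.3% and 58.6% without it, and the groups did not overlap (exact permutation p = 0.1). The Dlgap1 base, in the 3′ UTR of a scaffold gene of the postsynaptic density, was edited in 53.8%, 54.8% and 55.6% with the enzyme and in 54.7%, 58.6% and 58.3% without it, and the groups overlapped. Outside that base Dlgap1 had 230, 274 and 285 edited reads against 378, 234 and 266. The pseudogene Pisd-ps1 and the long non-coding RNA Snhg14 also had a base that held 89.8% and 31.5% of their buffer-only reads. Its edited share was 18.5% ± 0.917 against 19.3% ± 1.82 in Pisd-ps1 and 7.95% ± 0.650 against 7.55% ± 0.905 in Snhg14.

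**Figure D4:**
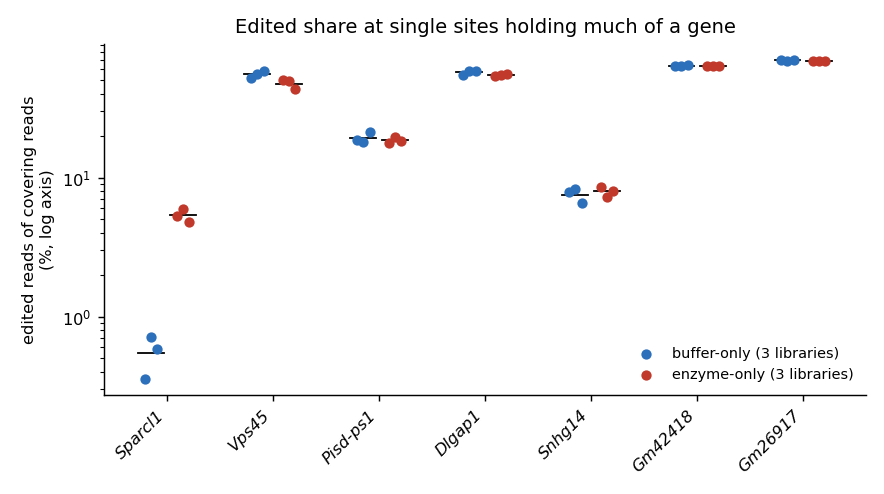
Edited reads as a percent of covering reads, on a log axis, at the 7 bases that held at least 25% of the edited reads of a named gene; points are libraries and lines the mean of 3. The Sparcl1 base was at 4.76% to 5.99% with the enzyme and 0.355% to 0.713% without it, while the Vps45 base was lower with the enzyme, at 43.0% to 50.0% against 51.8% to 58.6%, and the groups overlapped at the other 5.

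Nfix, a transcription factor, Spock1, a brain proteoglycan, and Dscam, a cell adhesion molecule, fell without such a base, relative to all edited reads. They fell by 0.85, 0.63 and 0.61 on the log2 scale (SE 0.20, 0.15 and 0.15, edgeR adjusted p = 0.0449 each), and lost the call in 12, 10 and 8 of the alternative settings. At most 1.99% of their buffer-only edited reads came from 1 base. Nfix had 36, 40 and 41 edited reads against 61, 45 and 45. Spock1 had 97, 154 and 129 against 177, 125 and 120, and Dscam 123, 153 and 145 against 178, 126 and 156. Before scaling, the reads of Spock1 and of Dscam overlapped between the groups. Camk2a was the last gene called lower, on 1, 0 and 6 edited reads against 2, 13 and 19, which overlapped. When the 2-group comparison was limited to sites with G or C before the C, 0 of 2043 genes passed in edgeR, with 122 at an unadjusted p under 0.05. The log2 differences there were 1.68 for Rab3c, 1.15 for Erbb4 and 0.85 for Lnpep (adjusted p = 0.683, 0.724 and 0.834). With an offset for the mean covering reads at the listed sites of a gene, 1 gene was higher and 3 were lower. The differences of the genes that lost the call stayed of like size, at 1.75 for Rlim, 1.47 for Lnpep, 1.44 for Rab3c, 1.48 for Erbb4, 0.98 for Purg and 0.62 for Qk. Sparcl1 was the one still called higher, and the lower ones were Gm42418, Gm26917 and Vsnl1, a neuronal calcium sensor. Without buffer-only replicate 1, 5 genes were higher and 4 lower, and without buffer-only replicate 3, 25 and 9.

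**Figure D5:**
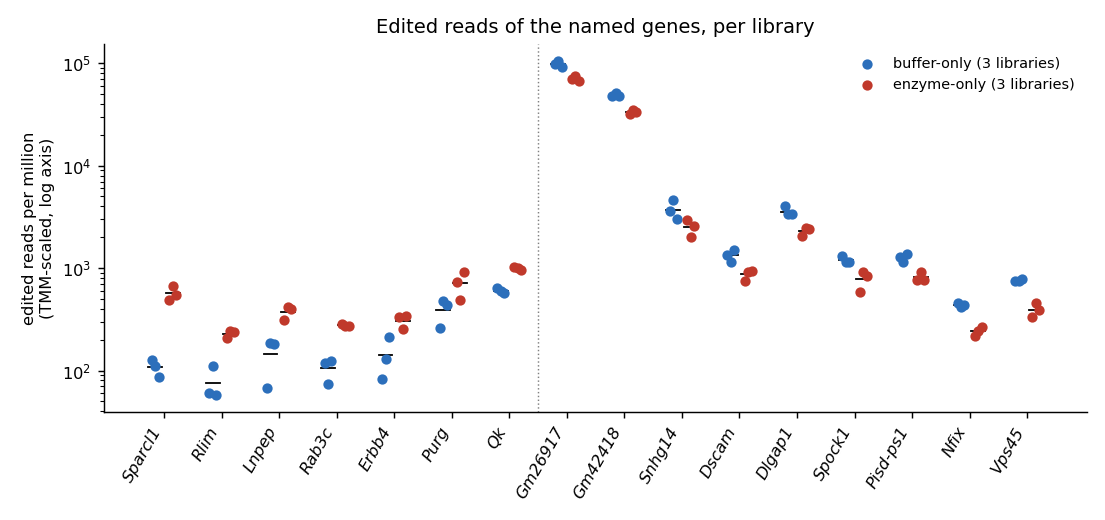
CPM of edited reads (reads scaled to the library total), adjusted by edgeR's TMM factors and on a log axis, of the 16 genes named by size of change; points are libraries, lines the mean of 3, and the dotted line parts the 7 higher from the 9 lower genes. Sparcl1 had a mean of 565 with the enzyme and 108 without it.

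Within genes, exons and introns were then tested apart, over 6344 gene and region features. With the enzyme 13 were higher, 0.205% of those tested, while 4 were lower, 0.0631%. All 13 were exons, but the share of exons among all tested features is not given here, so no preference can be read from this. Libraries of the groups did not overlap in 8.45% of features, higher with the enzyme, and in 7.96%, lower. Exons of Qk had 75, 68 and 51 edited reads against 12, 15 and 13 (log2 difference 1.75, SE 0.29, edgeR adjusted p = 1.05e-03). Exons of Psd3, an exchange factor for ARF6 at synapses, had 32, 35 and 36 against 2, 10 and 8 (1.82, SE 0.41, 0.0388). Exons of Grin2b, an NMDA receptor subunit, had 27, 24 and 15 against 0, 0 and 7. Exons of Sparcl1 had 58, 100 and 68 kept reads against 0, 0 and 1, and with every listed site a log2 difference of 1.496 (adjusted p = 1.10e-07). The lower features were exons of Gm42418 and Gm26917 and introns of Vps45 and Dlgap1.

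The share of edited reads with A or U before the C was tested within genes, as the shift in log2 of A or U over G or C reads. Both kinds came from the same gene in the same library, so that the number of reads covering the gene cancels. Of 3499 genes tested, 141 shifted toward A or U with the enzyme, 4.03%, and 0 the other way (edgeR, with 787 at an unadjusted p under 0.05). The shift was above 0 in 3017 genes, 86.2%, with a median of 0.65 and quartiles of 0.24 and 1.09. The share did not overlap between the groups in 24.5% of genes, higher with the enzyme, and in 0.714%, lower. Castor2, a cytosolic arginine sensor family member, had 18, 14 and 16 A or U reads and 6, 8 and 9 G or C reads with the enzyme, and 3, 3 and 3 against 5, 17 and 18 without it (shift 3.13, SE 0.67, adjusted p = 3.72e-03).

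The A or U share was 85.1% with the enzyme against 44.7% without it in Mbnl1, a splicing factor of the muscleblind family. It was 84.9% against 45.8% in Tspan2, a tetraspanin of myelinating cells, 84.7% against 45% in Mapk9, a JNK kinase, and 84.5% against 45.1% in Dclk1, a neuronal microtubule-associated kinase. The Dclk1 shift was 2.66, and 0.22 with genes from GENCODE (adjusted p = 0.483). In Sparcl1 the shift was 2.71 over kept sites, where the main base counted in the enzyme-only libraries alone, and 1.58 with every listed site (adjusted p = 8.84e-03). When each context was scaled to its own total, so that a gene was set against the shift of all genes, 0 genes were above it and 1, Gm26917, below. Over the alternative settings, this one included, the context call was lost in 1 for Castor2, 2 for Sparcl1, 4 each for Mbnl1 and Dclk1, and 5 each for Tspan2 and Mapk9.

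Gene lists were described by counts and medians only. Of 24 known APOBEC1 targets of other tissues, 14 could be tested and none was called. Of these 14, 12 had a log2 difference above 0, against 2897 of all 5926 genes, and the list's median was 0.49. Apob itself had 0 edited reads in every library. B2m, the light chain of MHC class I, had 3, 4 and 4 edited reads against 3, 5 and 2. Nf1, neurofibromin, had 75, 96 and 77 against 50, 38 and 35, with no overlap between the groups once scaled (0.53, SE 0.19, adjusted p = 0.257). App, the amyloid precursor, had 132, 148 and 146 against 137, 102 and 97.

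Synaptic and channel gene lists held 3 of the whole genes called lower, and exons of Grin2b were called higher. Over all genes 0.169% were called lower and 0.219% higher. None of the whole genes called higher was in these lists, which do not hold Rab3c or Erbb4. The calls are too few to read a direction from. Of 20 tested voltage-gated sodium and calcium channel genes none was called, 5 were above 0 and the median was -0.25, with 1 higher and 7 lower without overlap between the groups, against 8.27% higher and 7.34% lower of all genes. Cacna1e, an R-type calcium channel, had 151, 152 and 143 edited reads against 172, 119 and 138 (-0.43, SE 0.14, adjusted p = 0.188). Of 16 ionotropic glutamate receptor genes none was called and the median was -0.11, and the same counts for 24 potassium channel genes were 0 and -0.11. For GABA receptors and synthesis the median of 16 genes was 0.04, for synaptic adhesion that of 28 was 0.03 with Dscam lower, and for presynaptic release that of 21 was 0.24. With genes from GENCODE in place of the cluster label these 3 medians were -0.01, -0.25 and -0.13, so their sign turned. Of 18 postsynaptic scaffold genes Dlgap1 and Camk2a were lower and the median was -0.05.

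Splicing factors and other RNA-binding proteins had a median of 0.17 over 25 tested genes, with Qk called higher, and of -0.17 with genes from GENCODE. Their summed edited reads were 4486 to 4569 CPM (edited reads scaled to the library total) with the enzyme and 3724 to 3833 without it. Nova1, a neuronal splicing factor, had 18, 18 and 23 edited reads against 8, 4 and 5, and its paralog Nova2 43, 22 and 37 against 58, 31 and 33 (adjusted p = 0.149 and 0.188). Of 25 genes for cytoskeleton and motors, Map1b was higher and Spock1, a proteoglycan that the list also holds, lower. Of 8 nuclear long non-coding RNAs Snhg14 was lower. Of 6 tested glycolysis genes none was called, and of 37 ribosomal protein genes 1 had enough edited reads to be tested. Mitochondrial transcripts had none that could be tested.

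Markers of cell types checked the tissue. Edited reads were found for all 8 neuron, all 12 astrocyte and all 10 oligodendrocyte markers, and for 1 of 7 choroid plexus and 1 of 5 blood genes. Summed astrocyte markers had 3451 to 3866 CPM of edited reads with the enzyme and 2838 to 3076 without it, and endothelial markers 514 to 603 against 367 to 410. Both sums lay apart between the groups, as did those of the splicing list and of the known APOBEC1 targets, 2197 to 2509 against 1913 to 2048. Sums that lay apart in the other direction were those of postsynaptic scaffold genes, 5381 to 5661 against 6109 to 6910, and potassium channel genes, 8852 to 8912 against 9031 to 9796. Sums of all the lists were looked at, and no test was run on them. The smallest p that an exact permutation test of 3 against 3 can give is 0.1. Among many lists some sums can therefore lie apart by chance, and no preference can be read from these. Of 10 tested astrocyte markers none was called, 6 were above 0 and the median was 0.34. Gja1, the astrocytic gap junction protein, had 12, 16 and 25 edited reads against 3, 2 and 5 (1.89, SE 0.50, adjusted p = 0.0680), and Slc4a4, a bicarbonate cotransporter, 111, 108 and 88 against 68, 37 and 52 (0.48, SE 0.19, 0.315). Neuron markers summed to 886 to 1356 against 801 to 1017, oligodendrocyte markers to 819 to 965 against 706 to 895 and microglia markers to 279 to 429 against 238 to 403, and these overlapped. No gene of the lists for inhibitory, striatal, thalamic, hippocampal and cerebellar neurons or oligodendrocyte precursors was called, and Camk2a was the one called in the excitatory list. Fewer cells of a type, less RNA per cell and less editing per RNA cannot be told apart in edited reads of whole slices, and the part of slice composition in the gene differences was not tested.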

How the data were processed

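Per the labels, libraries were made from RNA depleted of ribosomal RNA, with a kit that is not settled by the labels, which name more than one. Per the methods and the submitters' processing notes, the authors trimmed reads with cutadapt, removed repeat reads, aligned to mm10 with STAR (2.4.0 and 2.5.2 are named) and called C-to-U sites with SAILOR, whose deposited confidence score was used as given. FLARE then joined sites into clusters, deposited with counts of edited and covering bases, an edit fraction, a mean depth signal and a gene and region label. Edited and covering reads of each site were deposited as a pair of counts. Total depth and the cover of positions without edits were not used here.

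Sites with a score above 0.5 and an edited fraction under 0.8 were kept. Of these, 94.1% to 95.1% lay in a cluster and 58.9% to 64.7% had a label of 1 gene. Sites in clusters with several genes were left out of gene tests. Bases were read from GRCm38 with pysam 0.24.0, and regions from GENCODE. Library measures were compared with a two-sided exact permutation test. Edited reads were tested with edgeR 4.0.16 (R 4.3.3, quasi-likelihood, TMM, Benjamini-Hochberg) in 1 fit over the 9 brain libraries, with DESeq2 1.42.0 as an alternative. Shares of sites have 95% Wilson intervals (statsmodels 0.14.6), and tables were handled in Python 3.11.15 with pandas 2.3.3 and numpy 2.4.6. In data simulated for the gene test, over 5582 genes, 37% of genes changed 2-fold and 85% of those changed 4-fold were recovered, and 3.94% of calls were false. Genes were named by size of change among those called, without overlap between the groups and averaging 20 or more edited reads a library, up to 15 higher and 10 lower, 6 by context and 4 features in each direction. Genes named from lists, and genes called on fewer reads, were chosen after their values were seen. The groups, gene lists and tests were chosen with earlier results of these data known. Alternatives were another size factor, no filter, every listed site, GENCODE genes, the 6 libraries alone, a replicate block, an offset for cover, and leaving out each library.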

Additional observations from a re-analysis of the deposited data

How the results depend on the processing

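The cause of each change below was not tested. For edited reads per gene, 13 higher and 10 lower genes became 38 higher with no filter on low counts, 52 and 21 with every listed site, 24 lower with genes from GENCODE, 22 higher in the 6 libraries alone, 0 and 0 with G or C before the C, 1 and 3 with the cover offset, 6 and 6 at sites with at least 20 covering reads, and 6 higher by DESeq2's Wald test, which gave 8 of the main calls no adjusted p. Without the sites kept in all 6 libraries, an alternative chosen after seeing the data, 2 were lower. Leaving out 1 library gave 5 to 25 higher and 4 to 9 lower genes. For the context shift, 141 genes became 38 with no filter, 333 with every listed site, 289 with GENCODE genes, 1 with each context scaled to its own total (chosen after seeing the data) and 35 to 57 with 1 library left out. For genes split by region, 13 higher and 4 lower became 65 and 33 with every listed site (chosen after seeing the data), and 4 to 22 and 2 to 5 with 1 library left out. Recurring sites went from 87 and 33 to 5 and 3 with at least 2 edited reads in each library. The difference in the coding share turned from 1.41 to -0.0580 points without buffer-only replicate 1, and ranged up to 2.20 with 1 library left out. That of the 5′ UTR share, -0.00239 points and -0.0899 at its lowest, turned to 0.0156 without enzyme-only replicate 2, 0.0514 without enzyme-only replicate 3 and 0.101 without buffer-only replicate 2, and that of non-coding exons, -0.0388 and -0.112 at its lowest, turned to 0.0459 without enzyme-only replicate 3 and 0.0147 without buffer-only replicate 1.

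Replicate numbers did not pair the slices: deviations of same-numbered libraries correlated at 0.00330, -0.00195 and 0.0570. With the replicate block, 16 genes were higher and 11 lower, and 14 and 4 features. The smallest exact p within replicate numbers was 0.25.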
